A study of Mus musculus with 3 samples.

Results

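ORR1 repeats are a family of mouse LTR retrotransposons, and their RNA was followed here in 3 RNA immunoprecipitation (RIP-seq) libraries from hippocampus. Every repeat name beginning with ORR1 was taken, which gave 18 of the 18484 names listed. Of these, 14 are LTR names and 4 are internal names, which carry the suffix -int. All 18 had reads in every library. Per the labels, the mice were 9 months old on a C57BL/6 background and were either PS19 or wild type (WT). PS19 mice carry a transgene for mutant human tau, driven by the mouse prion promoter. In PS19 mice RNA was pulled down with an antibody to ZBP1 and, separately, by its Z-form nucleic acid (ZNA); in WT mice it was pulled down by ZNA alone. Each of these 3 groups had 1 library, so the spread between replicates is unknown for all values, and whether a library pools several mice was not stated in the labels. No input, control-antibody or WT ZBP1 library was analysed here.

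ORR1 elements belong to the mammalian apparent LTR retrotransposons (MaLR), which are related to the ERVL endogenous retroviruses and depend on proteins of other elements to move. A full element has an internal stretch between a pair of long terminal repeats, the LTRs. The LTR holds the promoter and the polyadenylation signal, and most copies in the genome are solitary LTRs left by recombination between the pair. ORR1 and the related MT elements are known for transcripts in the oocyte and early embryo, where their LTRs can act as promoters of genes. The letters order the subfamilies from A, the youngest, to G, the oldest. Copies of an old subfamily have gathered more mutations and resemble one another less. ZBP1 is a sensor that binds left-handed double-stranded nucleic acid. Inverted pairs of repeats in a transcript are one known source of double-stranded RNA.

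A name pools all copies of that repeat in the genome, in whatever gene, intron or intergenic stretch they lie, so no chromosome position or strand belongs to any value here. Names also differ in copy number and in length, neither of which the files give. The number of reads on a name is therefore described within that name across libraries, and not as an expression level to be ranked between names. No consensus sequence of these repeats was in the files used here, and none is printed.

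The libraries held 1425383 (PS19 ZBP1), 2918985 (PS19 ZNA) and 3234786 (WT ZNA) reads on repeat names. The names LSU-rRNA_Hsa and SSU-rRNA_Hsa, which are ribosomal RNA, took 94.8%, 89.4% and 95.5% of them, so that 74474, 308613 and 145372 reads lay outside rRNA. Values are given on both bases, as counts per 1000000 reads of the library total (CPM) and per reads outside rRNA, because the rRNA share moves with every value on the former. BC1_Mm, the name of a neuronal RNA, had 33, 146 and 77 reads, and was the only marker of brain tissue that a table of repeats allowed. Intervals are 95% intervals and cover counting error only. The labels name no molecular identifiers, so reads may not be independent molecules, and libraries of 1 kind can differ by more than counting error.

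ORR1 names together took 0.508% of the ZBP1 library on 7240 reads, 0.808% of the PS19 ZNA library on 23574 reads and 0.318% of the WT ZNA library on 10299 reads. By library total, the PS19 ZNA library was thus highest and the WT ZNA library lowest. Of the reads outside rRNA, ORR1 names took 9.72% (Wilson interval 9.51 to 9.94%) in the ZBP1 library, 7.64% (7.55 to 7.73%) in the ZNA library of PS19 and 7.08% (6.95 to 7.22%) in that of WT. On this base the order changed, and the ZBP1 library was highest. The LTR names held nearly all of these reads. They took 9.39%, 7.43% and 6.91% of all reads outside rRNA, in the same order, and the 4 -int names took 0.332%, 0.210% and 0.177%.

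**Figure D1:**
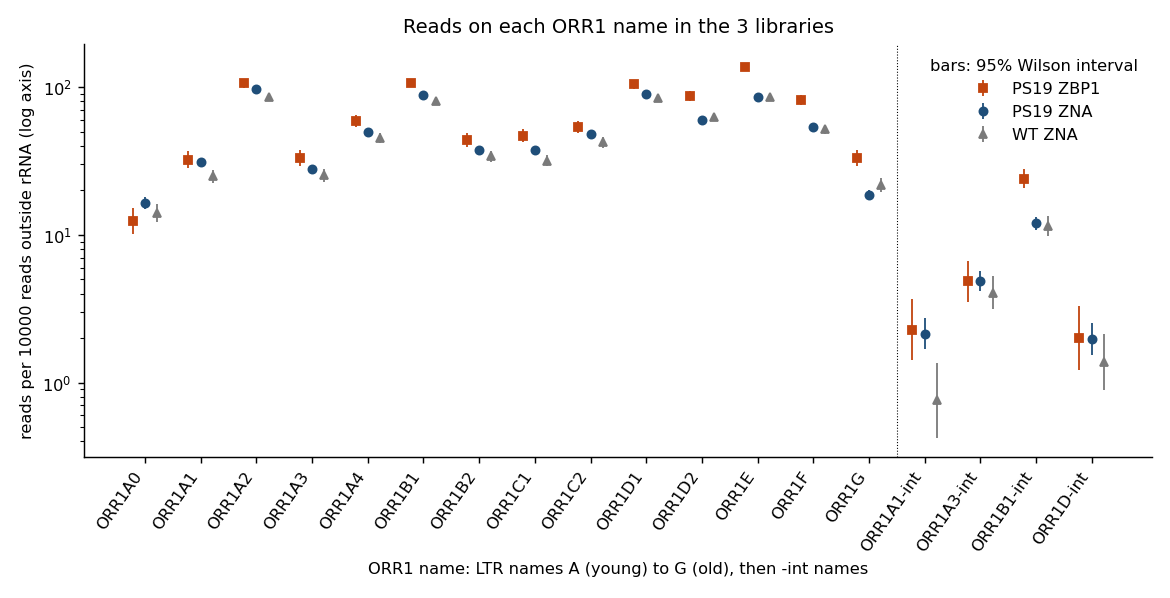
Reads per 10000 reads outside rRNA (log axis) on each of the 18 ORR1 names in the ZBP1 library and in both ZNA libraries, with 95% Wilson intervals for counting error. LTR names run from A to G, and the 4 -int names follow after the dotted line. The ZBP1 points stand farthest above the others for ORR1D2, ORR1E, ORR1F, ORR1G and ORR1B1-int, and ORR1A0 is the LTR name at which the ZBP1 point is lowest.

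Among the A names, ORR1A0 had 93 reads in the PS19 ZBP1, 507 in the PS19 ZNA and 205 in the WT ZNA library, or 12.5, 16.4 and 14.1 per 10000 reads outside rRNA. It was the LTR name with the fewest reads in each library and the only LTR name at which the ZBP1 library was lowest on this base. ORR1A1 had 32.4, 31.3 and 25.0 per 10000 in the same order, so that the libraries of PS19 lay close together and above WT. ORR1A2 had 106.3, 96.9 and 85.2. ORR1A3 had 33.2, 27.9 and 25.4, and ORR1A4 had 59.3, 49.5 and 45.2. ORR1A1 to ORR1A4 thus had the order of the whole family, with ZBP1 highest and WT ZNA lowest.

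The B and C names kept that order. ORR1B1 had 106.7 reads per 10000 outside rRNA in the ZBP1, 88.9 in the PS19 ZNA and 80.8 in the WT ZNA library, and ORR1B2 had 44.0, 37.5 and 34.0. ORR1C1 had 46.9, 37.8 and 31.8, and ORR1C2 had 53.8, 48.2 and 42.2. In all 4 names the PS19 ZNA library lay between the other two.

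In the D to G names the ZBP1 library was again the highest, and among LTR names it stood farthest above the PS19 ZNA library in ORR1D2, ORR1E, ORR1F and ORR1G. ORR1D1 had 104.5, 89.9 and 84.5 reads per 10000 outside rRNA, and ORR1D2 had 86.6, 60.0 and 62.9. ORR1E had 137.8 in the ZBP1 library against 86.3 and 85.9 in the ZNA libraries of PS19 and WT. It was the ORR1 name with the most reads in the ZBP1 library (1026), whereas ORR1A2 had the most in the PS19 ZNA library (2992) and ORR1E (1249) and ORR1A2 (1239) were close in WT. ORR1F had 81.6, 53.6 and 52.0, and ORR1G had 33.3, 18.6 and 21.7. For ORR1D2 and ORR1G the PS19 ZNA library was the lowest of the 3.

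The PS19 and WT libraries of the ZNA pull-down address how the genotypes differ in the repeat RNA recovered, and are called the genotype comparison. By library total, ORR1 reads were 2.54-fold higher in the PS19 library (exact conditional interval 2.48 to 2.60). The LTR names ranged from 2.02-fold (ORR1G) to 2.95-fold (ORR1A1) and the -int names from 2.46-fold (ORR1B1-int) to 6.65-fold (ORR1A1-int). On a log2 scale with a pseudocount of 1 CPM, all 18 names stood 2-fold or more above WT and 0 stood 2-fold or more below. Of the 713 repeat names compared, 74.3% stood above and 0.421% below by this limit, so most repeat names passed it as well. ORR1G, with a log2 ratio of 1.004, lay just inside the limit. The median log2 ratio was 1.37 over the ORR1 names and 1.24 over all names.

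Per reads outside rRNA, ORR1 reads were 1.08-fold higher in PS19 (1.05 to 1.10). The median log2 ratio was 0.14 over the 18 names, against 0.07 over all 713, and 13 of the 18 lay above the median of all names. Only ORR1A1-int was 2-fold or 1.5-fold higher, and 0 ORR1 names were lower by either limit. The background shares were 3.51% higher and 2.66% lower at 2-fold, and 9.96% and 7.71% at 1.5-fold. Once rRNA was set aside, the share of ORR1 names past a limit was thus near that of repeats at large. The rRNA share was 89.4% in the PS19 and 95.5% in the WT ZNA library, and with rRNA left out of the total the 2.54-fold difference was the 1.08-fold one given here.

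Per reads outside rRNA, the small differences that were left lay in letters A to C and in G. Transposable elements held 96.1% of this base for PS19 ZNA but 91.0% for WT ZNA. Scaled to transposable element reads instead, the pooled log2 ratio of ORR1 was 0.029 in place of 0.109. Single letters and names were not scaled that way, so which of their intervals include 1 is given for reads outside rRNA only. The A names pooled were 1.15-fold higher in the PS19 ZNA library per reads outside rRNA (1.10 to 1.198), the B names 1.10-fold (1.04 to 1.16) and the C names 1.16-fold (1.08 to 1.25). The D names stood at 1.02 (0.970 to 1.07), ORR1E at 1.004 (0.939 to 1.08) and ORR1F at 1.03 (0.945 to 1.12), with intervals that include 1. ORR1G was 1.17-fold lower (1.01 to 1.34). Among single LTR names, 5 of 14 had an interval above 1, namely ORR1A1, ORR1A2, ORR1B1, ORR1C1 and ORR1C2, and ORR1G had the only one below 1. Of all 713 names, 14.6% had an interval above 1 and 6.73% one below 1. Names with more reads have narrower intervals, so such counts depend on read number as well as on the ratio. The log2 ratios of the 14 LTR names had a standard deviation of 0.14, where counting error alone would give 0.08. For every 100 reads on A names there were 69.2 reads on E, F and G names in the ZNA library of PS19 and 79.9 in that of WT. This ratio, which does not depend on how libraries are scaled, was 1.16-fold lower in PS19 (1.08 to 1.23).

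**Figure D2:**
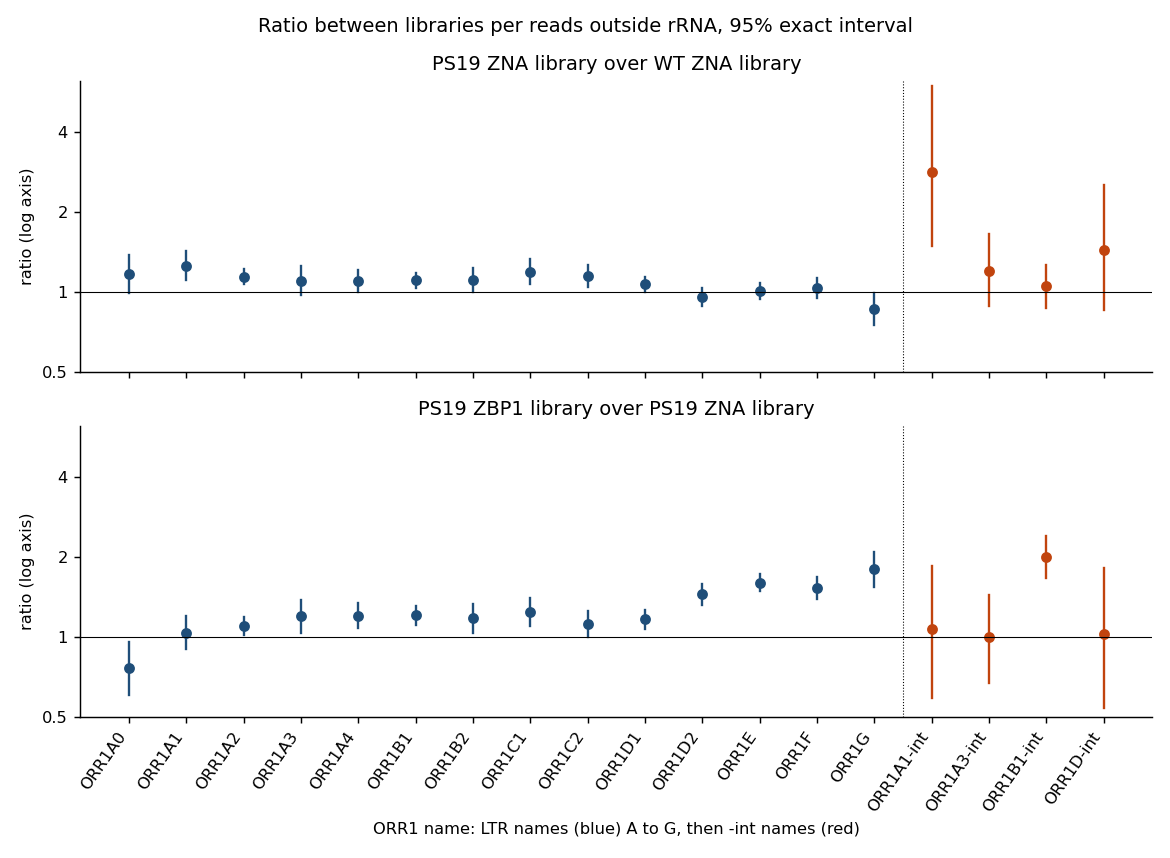
Ratio between libraries per reads outside rRNA (log axis) for each ORR1 name, with 95% exact conditional intervals for counting error. The upper panel is PS19 over WT (ZNA pull-down) and the lower panel ZBP1 over ZNA (PS19 mice); LTR names are blue and -int names red. In the lower panel LTR names run from 0.760 for ORR1A0 to 1.79 for ORR1G, and ORR1B1-int stands at 1.999 while the other 3 -int names lie close to 1.

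The pair of PS19 libraries address whether ZBP1 and Z-form nucleic acid bring down the same repeats, and are called the pull-down comparison. By library total, ORR1 reads were 1.59-fold lower in the ZBP1 library (a ratio of 0.629, 0.613 to 0.646). Of the 18 names, only ORR1A0 was lower by 2-fold or more and 0 were higher by as much. Among the 682 names compared, 50.1% were lower and 0.293% higher by this limit. ORR1A3-int, with a log2 ratio of -0.997, lay just short of the limit. The median log2 ratio was -0.77 over the ORR1 names and -1.002 over all names, and 17 of the 18 lay above the median of all names.

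Per reads outside rRNA the direction turned, and ORR1 reads were 1.27-fold higher in the ZBP1 library (1.24 to 1.31). The median log2 ratio was then 0.24 over the ORR1 names and -0.05 over all 682. No ORR1 name passed 2-fold in either direction, against background shares of 8.21% higher and 7.92% lower. ORR1B1-int, with a log2 ratio of 0.990, lay just short of the limit. At 1.5-fold, 4 of the 18 names were higher, namely ORR1E, ORR1F, ORR1G and ORR1B1-int, and 0 were lower. The background was 20.8% higher and 21.3% lower, so the number of higher ORR1 names was near that of all repeats, and the names in question were the 3 oldest LTR names and 1 internal name. Of the 14 LTR names, 11 had an interval above 1, ORR1A0 had one below 1, and those of ORR1A1 and ORR1C2 included 1. Of all 682 names, 19.1% had an interval above 1 and 18.6% one below 1, with the same dependence on read number. Under TMM scaling, an alternative given below, the pooled log2 ratio was 0.192 in place of 0.348. ORR1A1 and ORR1A2 then stood at -0.108 and -0.023, and 12 of the 18 names lay above 0, against 16 per reads outside rRNA. TMM intervals were not computed for names or letters, so which ones exclude 1 is given here for reads outside rRNA only. The rRNA share was 94.8% with ZBP1 and 89.4% with ZNA, and with rRNA left out of the total the ratio of 0.629 became 1.27.

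**Figure D3:**
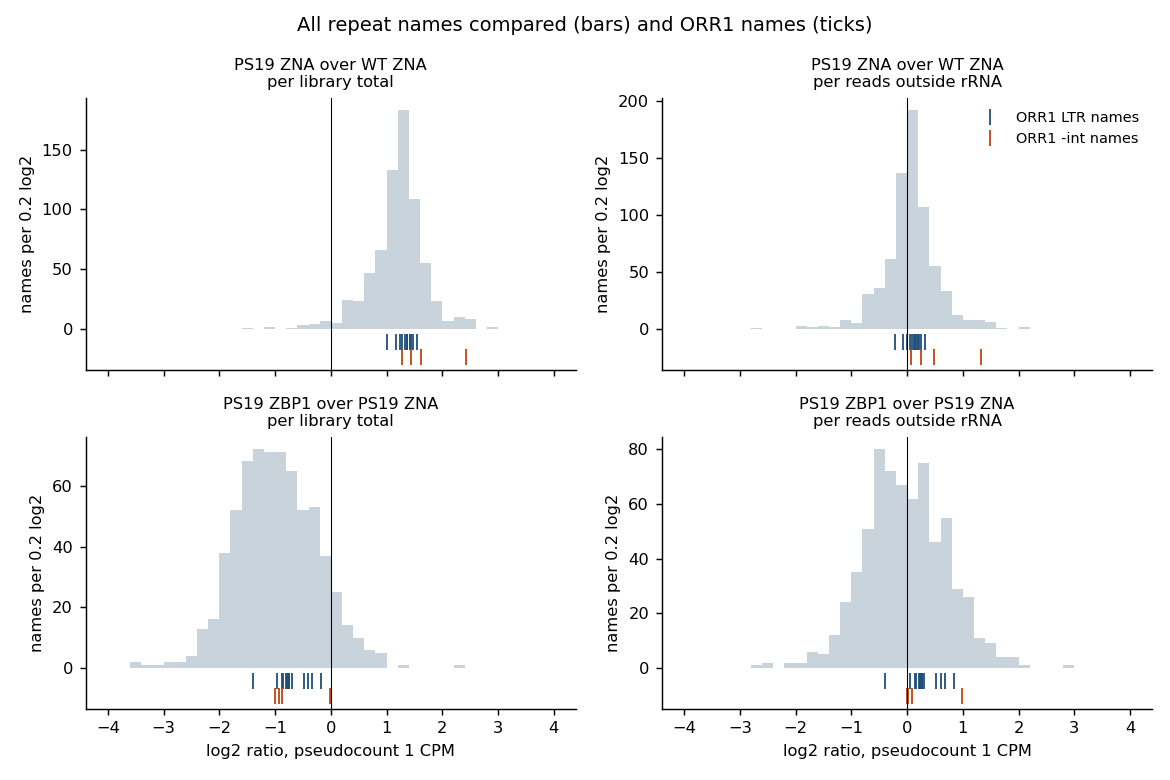
Histograms of the log2 ratio (pseudocount 1 CPM) of all repeat names compared, in bins of 0.2, with ORR1 LTR names (blue ticks) and -int names (red ticks) below. By library total (left) the histograms are centred away from 0, with medians of 1.24 and -1.002; per reads outside rRNA (right) the medians are 0.07 and -0.05, and ORR1A1-int, at 1.33, lies in the upper tail for PS19 over WT.

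Among the letters, E, F and G stood above A to D in this comparison. Per reads outside rRNA, the A names pooled were 1.10-fold higher in the ZBP1 library (1.04 to 1.15), the B names 1.26-fold (1.19 to 1.34), the C names 1.17-fold (1.08 to 1.27) and the D names 1.27-fold (1.20 to 1.35). ORR1E was 1.60-fold higher (1.48 to 1.72), ORR1F 1.52-fold (1.39 to 1.67) and ORR1G 1.79-fold (1.54 to 2.09). The step from D to E was larger than counting error, with a ratio of the 2 ratios of 1.26 (1.14 to 1.38). So was the step from A to B, at 1.15 (1.06 to 1.25), but over LTR names alone it was 1.09 (0.998 to 1.18), because the B names include ORR1B1-int. The steps from B to C (0.927, 0.836 to 1.03), C to D (1.09, 0.981 to 1.20), E to F (0.954, 0.847 to 1.07) and F to G (1.18, 0.983 to 1.41) were not.

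A tilt in the same direction was seen along the numerals inside letters A and D. Only the letters were ordered by age here, so the numerals give an order of names and not of known age. ORR1A0 was 1.32-fold lower in the ZBP1 library per reads outside rRNA (1.05 to 1.66), ORR1A1 stood at 1.03 (0.894 to 1.19), ORR1A2 at 1.10 (1.01 to 1.19), ORR1A3 at 1.19 (1.03 to 1.37) and ORR1A4 at 1.199 (1.08 to 1.33). These values increase with the numeral, although neighbours in this order mostly overlap. ORR1A0 set against ORR1A4 was 1.58-fold lower with ZBP1 (1.23 to 2.04). ORR1D2 was 1.44-fold higher (1.32 to 1.58) and ORR1D1 1.16-fold (1.07 to 1.26), and the ratio between them was 1.24 (1.10 to 1.40). ORR1D2 thus lay near the E names, and ORR1E set against it stood at 1.11 (0.985 to 1.24). The numbered pairs within B and C did not separate at this depth. The ratio of ORR1B2 to ORR1B1 in the ZBP1 library was 0.978 of that in the ZNA library (0.842 to 1.13), and for ORR1C2 to ORR1C1 it was 0.900 (0.763 to 1.06).

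The 14 LTR names were placed by letter, then by numeral, from ORR1A0 to ORR1G. Spearman's rho between this place and the log2 ratio was 0.815 in the pull-down comparison. It was 0.769 without ORR1A0, 0.769 without ORR1G and 0.627 over the 11 names from ORR1A0 to ORR1D2. The log2 ratios had a standard deviation of 0.30, against 0.09 from counting error. In the genotype comparison, rho was -0.754 over the 14 names and -0.527 over the 11. The names of 1 library share its depth and handling, and related names share sequence, so these coefficients describe the libraries and carry no p-value. Both comparisons use the PS19 ZNA library, once above and once below the line, which by itself pushes their ratios in opposite directions.

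Each library's own make-up gives the tilt without a ratio between libraries. The A names made up 25.8% of the ORR1 reads in the ZBP1 library (Wilson interval 24.8 to 26.8%), 30.0% in the ZNA library of PS19 (29.4 to 30.6%) and 28.2% in that of WT (27.3 to 29.1%). The E, F and G names together made up 26.0% (25.0 to 27.0%), 20.7% (20.2 to 21.3%) and 22.5% (21.7 to 23.3%). For every 100 reads on A names, the ZBP1 library held 100.7 reads on E to G names (94.5 to 107.5), above the 69.2 (66.7 to 71.8) and 79.9 (75.6 to 84.4) of the ZNA libraries of PS19 and WT. The ZBP1 library was thus shifted towards old subfamilies against both ZNA libraries, and the ratio was 1.46-fold higher than in the PS19 ZNA library (1.35 to 1.57). The middle letters differed less: B names made up 18.0%, 18.1% and 17.8% and D names 19.9%, 19.9% and 21.0% of the ORR1 reads, in the order ZBP1, PS19 ZNA and WT ZNA.

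**Figure D4:**
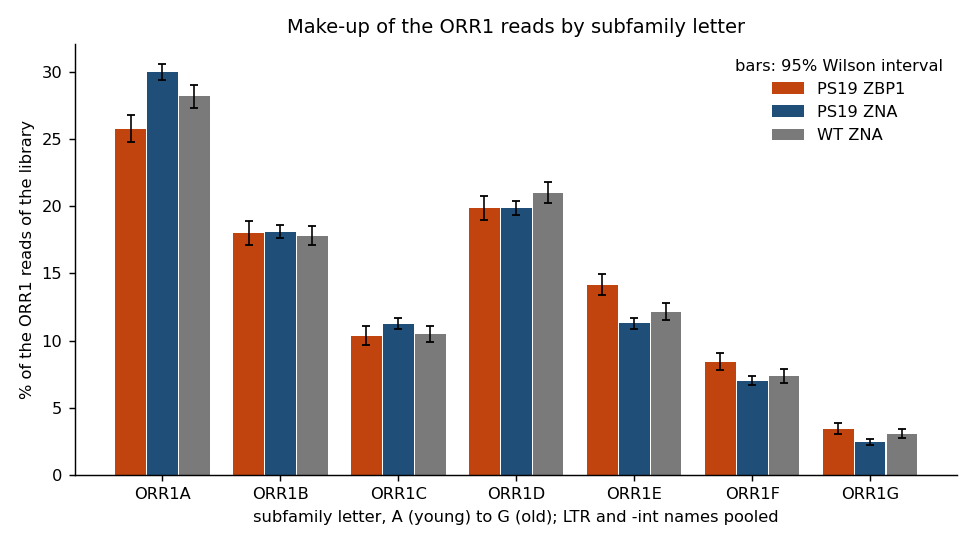
Share of each library's ORR1 reads (%) that fell on each subfamily letter, LTR and -int names pooled, with 95% Wilson intervals for counting error. A names took 25.8% in the ZBP1 library against 30.0% and 28.2% in the ZNA libraries of PS19 and WT, and ORR1E took 14.2% against 11.3% and 12.1%.

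Internal names were then set against LTR names. An -int name covers the stretch between the LTRs, which solitary LTRs lack. Per 100 LTR reads there were 3.53 -int reads in the ZBP1 library (3.10 to 4.01), 2.83 in the ZNA library of PS19 (2.61 to 3.06) and 2.56 in that of WT (2.25 to 2.90). In the genotype comparison this ratio differed by a factor of 1.10, within counting error (0.952 to 1.28), and in the pull-down comparison by 1.25 (1.07 to 1.45). Both changed when ORR1B1-int, the -int name with the most reads, was left out. Without it the factors were 1.35 (1.06 to 1.73) and 0.805 (0.607 to 1.05), so that PS19 was then above WT and ZBP1 no longer above ZNA. Among the names left, the genotype ratio to the LTR name excluded 1 for ORR1A1-int only (2.25, 1.16 to 4.79), on 11 WT reads.

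ORR1B1-int had 179 reads in the ZBP1, 371 in the PS19 ZNA and 167 in the WT ZNA library. These were 24.0, 12.0 and 11.5 per 10000 reads outside rRNA, so that the ZNA libraries were alike and the ZBP1 library was high. By library total it had 125.6 CPM with ZBP1 and 127.1 CPM with ZNA in PS19, a ratio of 0.988 (0.822 to 1.18). Per 100 reads on the LTR name ORR1B1 there were 22.5 (19.0 to 26.5), 13.5 (12.1 to 15.1) and 14.2 (12.0 to 16.7) reads on ORR1B1-int. This ratio was 1.67-fold higher with ZBP1 than with ZNA in PS19 (1.36 to 2.03), and PS19 over WT stood at 0.9505 (0.779 to 1.16). Set against the other 3 -int names pooled, ORR1B1-int was 1.97-fold higher in the ZBP1 library (1.41 to 2.75). Among the 682 names compared it ranked at place 57 from the highest per reads outside rRNA, and ORR1G, the highest LTR name of the family, at place 79. ORR1B1-int was singled out after its values were seen.

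ORR1A1-int had 17 reads in the ZBP1, 66 in the PS19 ZNA and 11 in the WT ZNA library, or 2.28, 2.14 and 0.757 per 10000 reads outside rRNA. The WT library was low and the PS19 libraries were alike. Per 100 reads on ORR1A1 there were 7.05 (4.04 to 11.5), 6.83 (5.24 to 8.77) and 3.03 (1.499 to 5.49). The ratio was 2.25-fold higher in the genotype comparison, with a wide interval (1.16 to 4.79), and stood at 1.03 in the pull-down comparison (0.557 to 1.82). In the genotype comparison per reads outside rRNA it ranked at place 13 of 713 names. The value rests on 11 WT reads. ORR1A1-int had the highest genotype ratio of all ORR1 names, so its place is that of the most extreme member.

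ORR1A3-int had 36, 150 and 59 reads, and 14.6, 17.4 and 16.0 reads per 100 on ORR1A3, in the order ZBP1, PS19 ZNA and WT ZNA. ORR1D-int had 15, 61 and 20 reads, and 1.05, 1.32 and 0.933 per 100 reads on ORR1D1 and ORR1D2 together. For neither name was a difference in this ratio to LTR reads detectable at this depth in either comparison. In the pull-down comparison the ratio of -int to LTR reads was 0.836 for ORR1A3-int (0.549 to 1.25) and 0.800 for ORR1D-int (0.421 to 1.43). The files list no -int name for E, F or G, so the tilt towards old subfamilies is a statement about LTR names.

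**Figure D5:**
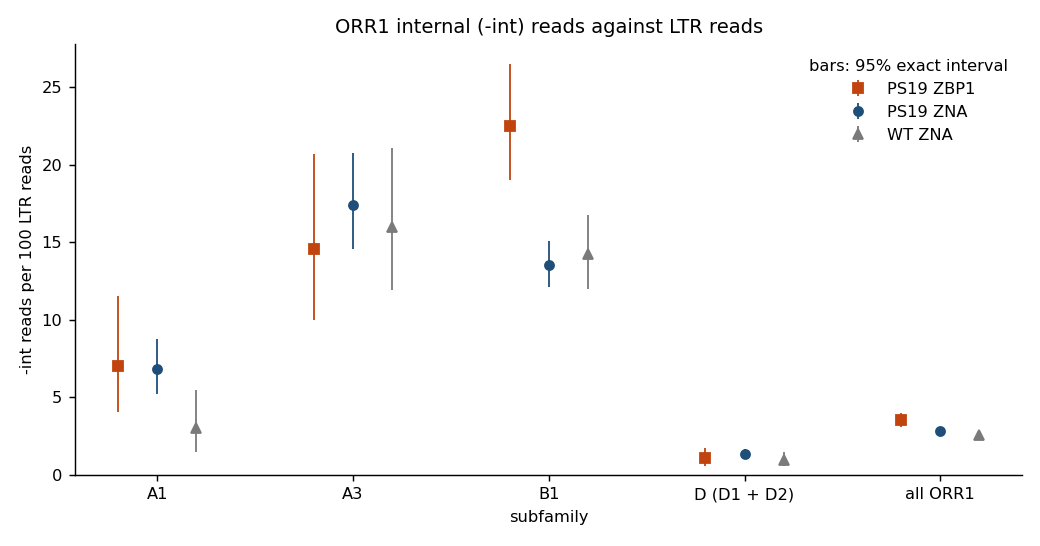
Reads on the -int name per 100 reads on the LTR name of the same subfamily in the 3 libraries, with 95% exact intervals for counting error. B1 stands at 22.5 in the ZBP1 library against 13.5 and 14.2 in the ZNA libraries. A1 stands at 3.03 in the WT ZNA library (1.499 to 5.49). In the PS19 libraries it stands at 7.05 with ZBP1 (4.04 to 11.5) and 6.83 with ZNA (5.24 to 8.77). The intervals of A1, A3 and D overlap between libraries.

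ORR1 was last set beside related families. The MTA to MTE names, also rodent MaLR, took 9.80%, 7.64% and 7.62% of reads outside rRNA in the order ZBP1, PS19 ZNA and WT ZNA. Relative to them, ORR1 stood at 0.992 in the pull-down comparison, which counting error does not separate from 1 (0.955 to 1.03), and was 1.08-fold higher in the genotype comparison (1.04 to 1.11). The 34 names starting with MLT1, MST or THE1, which are ancient MaLR and are together called MLT1 here, took 2.22%, 1.59% and 1.71%. Relative to MLT1, ORR1 was 1.16-fold higher in the genotype comparison (1.09 to 1.22) and 1.09-fold lower in the pull-down comparison (1.03 to 1.16). Against MERVL and its MT2 LTRs, the related autonomous elements, both ratios included 1 (0.984, 0.926 to 1.05, and 1.06, 0.989 to 1.14).

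The MT names, lettered from MTA to MTE, likewise stood lowest at their first letter in the pull-down comparison. MTE set against MTA was 1.27-fold higher with ZBP1 (1.17 to 1.39), where ORR1 E to G names set against A names were 1.46-fold higher. Per reads outside rRNA, the ratio in the pull-down comparison was 1.09 for MTA (1.01 to 1.17), 1.38 for MTB (1.27 to 1.49), 1.26 for MTC (1.19 to 1.34), 1.26 for MTD (1.198 to 1.33) and 1.38 for MTE (1.32 to 1.45), so that MTA stood low and MTB as high as MTE. MLT1 set against the ORR1 A names was 1.27-fold higher (1.18 to 1.37). ORR1E to ORR1G pooled were still 1.15-fold higher relative to MLT1 (1.06 to 1.24) and 1.24-fold higher relative to the MT names (1.17 to 1.32). In the genotype comparison the MT ratios were 0.95 for both MTA and MTD, 1.03 for MTB, 1.06 for MTC and 1.04 for MTE, with no order by letter. The -int names of the MT family set against its LTR names were 1.38-fold lower in the pull-down comparison (1.18 to 1.62). Those of ORR1 were higher with ORR1B1-int among them, but without it they stood at 0.805 (0.607 to 1.05). In the genotype comparison the factor was 1.17 for the MT family (1.03 to 1.33) and 1.10 for ORR1 (0.952 to 1.28).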

How the data were processed

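RIP-seq reads from 3 mouse hippocampus libraries, 1 per group, were analysed as counts per repeat name. The authors deposited whole-number read counts without normalizing them, as the file headers and values show. Trim Galore 0.6.5, STAR 2.5.3a, featureCounts 2.0.4 and the build mm39 are named in the submitters' processing notes. The repeat annotation, the strand setting and the treatment of reads that map to several copies are not given in the sources used here; they can move reads between related ORR1 names.

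All names starting with ORR1 were used. The members and lists were chosen with earlier results of these data known. Names were compared if they averaged 1 CPM or more in the pair of libraries and had 20 or more summed reads; all 18 ORR1 names passed. Log2 ratios used a pseudocount of 1 CPM, which understates changes of names with few reads. For values per reads outside rRNA, library sizes were replaced by those reads, rescaled to the same geometric mean, over the same names. Ratios of reads have exact conditional (Clopper-Pearson) 95% intervals, ratios of ratios conditional exact intervals, and shares Wilson intervals. With 1 library per group no edgeR quasi-likelihood fit was possible and p-values are not given. A count of 0 allows up to 3 reads, or 2.10, 1.03 and 0.927 CPM, in the ZBP1, PS19 ZNA and WT ZNA libraries. The code was tested on simulated data. TMM factors came from edgeR 4.0.16 in R 4.3.3; all else ran in Python 3.11.15 with scipy 1.17.1, numpy 2.4.6 and pandas 2.3.3, and plots used matplotlib 3.10.9. Alternatives were TMM scaling, scaling to transposable element reads, other pseudocounts, filters and fold limits, and leaving out single names.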

Additional observations from a re-analysis of the deposited data

How the results depend on the processing

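Scaling decided the sign and size of values by library total, because rRNA sets that total. The pooled log2 ratio of ORR1 for PS19 over WT ZNA went from 1.34 to 0.109 (reads outside rRNA), 0.117 (TMM) and 0.029 (transposable element reads), and its median from 1.37 to 0.141 and 0.149 under the former pair. For ZBP1 over ZNA in PS19 the pooled value turned from -0.67 to 0.348, 0.192 and 0.351, and the median from -0.77 to 0.240 and 0.084. In PS19 over WT, ORR1D2 turned to -0.068 and ORR1G to -0.221 per reads outside rRNA, and to -0.060 and -0.213 under TMM. Names at least 2-fold higher in PS19 went from 18 to 1 under both scalings, and names at least 2-fold lower in ZBP1 from 1 to 0.

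A 4-fold limit left 1 name higher in PS19 than in WT and 0 lower in ZBP1 than in ZNA; a 1.5-fold limit gave 13 lower in ZBP1, and a pseudocount of 0.1 gave 2. A pseudocount of 5 moved the PS19 over WT median to 1.34. Without ORR1B1-int the log2 ratio of -int to LTR reads went from 0.14 to 0.431 (PS19 over WT) and from 0.32 to -0.313 (ZBP1 over ZNA). Set as C to G against A and B, the log2 ratio of old to young names for ZBP1 over ZNA was 0.251 in place of 0.54; without ORR1A0 or without ORR1E, both added after seeing the data, it was 0.51 and 0.54. Of 216 recomputed log2 ratios of single names, 143 stayed within their counting interval and 73 moved beyond it. Of the latter, 32 changed sign: in ZBP1 over ZNA 16 of the 18 names per reads outside rRNA and 12 under TMM, and in PS19 over WT the 2 names given above under each scaling. The alternative of old against young -int names gave no value, since no -int name is listed for E to G. No paired analysis was possible because each group has 1 library, and leaving out a library was not possible either. Depth limits the -int names most, with 15 reads on ORR1D-int in the ZBP1 and 11 on ORR1A1-int in the WT ZNA library.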
